A study of Mus musculus with 27 samples.

Results

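The genes described here are the 3 catalytic DNA methyltransferases Dnmt1, Dnmt3a and Dnmt3b, the catalytically inactive cofactor Dnmt3l, and the maintenance factors Uhrf1 and Hells, 6 of the 23382 genes in the RNA tables. They were chosen by name for their known function, with earlier results of these data known, and the rule that lists them uses no measured value. DNA methylation in mammals is set de novo by Dnmt3a and Dnmt3b and copied at each replication by Dnmt1. Uhrf1 binds hemimethylated CpG at the replication fork and brings Dnmt1 there, and Hells is a chromatin remodeller that lets methyltransferases reach packed DNA. In germinal centre B cells, which divide fast, Dnmt1 is known to be abundant, and Dnmt3l is known mainly from germ cells and embryonic stem cells.

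The cells came from VavP-Bcl2 mice, a lymphoma model in which a transgene under Vav regulatory sequences drives Bcl2, an inhibitor of apoptosis, across blood cells. Stem cells of the fetal liver, taken at E13.5 from VavP-Bcl2 embryos, received an empty vector or the retrovirus MSCV-SHMT2, which expresses the mitochondrial serine hydroxymethyltransferase, and were transplanted into irradiated wild-type mice, so the vector group carries the Bcl2 transgene as well. B220+ cells, B220 being a form of CD45 that marks B cells, were taken from spleens with tumours, per the RNA and ChIP labels. The ERRBS labels name only the cells, the model and the vector, and for SHMT2 replicates 2 and 3 their transfection field reads SHMT3 and SHMT4 (the titles were followed). There were 3 vector and 3 SHMT2 libraries of RNA-seq, 3 and 3 of ERRBS (enhanced reduced representation bisulfite sequencing, a readout of methylation in CpG-rich fragments), 2 and 2 of H3K4me1 ChIP-seq and 2 and 3 of H3K4me3 ChIP-seq. The labels do not state whether libraries of a group came from different mice. The p-values therefore reflect the spread of these libraries alone, and that spread may be technical.

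The depth of the RNA libraries is unknown, since the deposited TPM, a level scaled by transcript length and by library, keep none. Each ERRBS library covered 1330340 to 1424115 cytosines at a mean of 63.0 to 71.6 calls. Shmt2 itself stood at 174, 223 and 157 TPM with vector and at 244, 345 and 259 TPM with SHMT2, which do not overlap (limma adjusted p = 0.216). Erythroid genes summed to 1165 to 6059 TPM in vector replicates 2 and 3 and to 92.3 to 226 TPM in the other 4 libraries, and myeloid genes to 1145 to 1252 TPM against 210 to 434 TPM. Of the erythroid genes, all 17 tested had lower means with SHMT2, and the adult haemoglobin genes Hbb-b1 and Hba-a1 carry a listed 0 in every library, which was not taken to mean that their RNA was missing. Of the myeloid genes, 17 of 18 tested had lower means with SHMT2, with 0 of the list at 0 in all libraries. B-cell genes (12 listed, all tested) summed to 10837, 8544 and 7918 TPM in vector replicates 1, 2 and 3 and to 10554 to 10836 TPM in SHMT2 libraries. Of these 12 genes 11 had higher means with SHMT2, beside 5918 of all 11117 genes tested. Without overlap 5 of the 12 were higher, beside 16.9% of all genes tested. In such bulk samples fewer cells of a type and less RNA per cell cannot be told apart.

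The annotated start sites carry much of what follows, so 6 of them are shown first, from 250 bases before to 50 bases after the start, 5′ to 3′ on the gene's strand, with every CpG, the dinucleotide that the enzymes methylate, in capitals. All are RefSeq sequences of build GRCm38.p6, the build also called mm10. The first pair contrasts the innermost and the outermost start of Dnmt1, the second pair the first upstream start of Dnmt3a with its internal start, and the last pair Hells with Dnmt3l, the member with the least RNA. The RefSeq promoters used here give 13 starts for the 6 genes, and words such as first, outermost or only refer to these 13. The RefSeq spans of Dnmt3a, Dnmt3b and Hells begin upstream of their first listed start. All 6 genes matched by symbol. Their spans are chr9:20907206-20959888 for Dnmt1 on the minus strand and, on the plus strand, chr12:3801559-3914443 for Dnmt3a, chr2:153649411-153687730 for Dnmt3b, chr10:78042287-78063622 for Dnmt3l, chr17:56303337-56323486 for Uhrf1 and chr19:38930262-38970470 for Hells.
Dnmt1, innermost start, chr9:20952574-20952873, minus strand: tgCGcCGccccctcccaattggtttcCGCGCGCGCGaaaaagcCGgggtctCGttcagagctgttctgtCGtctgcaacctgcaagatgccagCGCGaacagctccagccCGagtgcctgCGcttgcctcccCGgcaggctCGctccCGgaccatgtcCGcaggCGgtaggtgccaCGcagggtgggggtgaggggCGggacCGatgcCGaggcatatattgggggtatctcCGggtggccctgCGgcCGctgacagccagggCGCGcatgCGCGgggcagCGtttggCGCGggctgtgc
Dnmt1, outermost start, chr9:20959839-20960138, minus strand: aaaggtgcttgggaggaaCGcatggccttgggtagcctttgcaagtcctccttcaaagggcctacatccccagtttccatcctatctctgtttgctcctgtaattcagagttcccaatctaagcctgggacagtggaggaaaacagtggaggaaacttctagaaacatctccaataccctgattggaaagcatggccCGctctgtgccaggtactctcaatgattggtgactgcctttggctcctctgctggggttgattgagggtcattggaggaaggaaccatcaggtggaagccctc
Dnmt3a, first upstream start, chr12:3806730-3807029, plus strand: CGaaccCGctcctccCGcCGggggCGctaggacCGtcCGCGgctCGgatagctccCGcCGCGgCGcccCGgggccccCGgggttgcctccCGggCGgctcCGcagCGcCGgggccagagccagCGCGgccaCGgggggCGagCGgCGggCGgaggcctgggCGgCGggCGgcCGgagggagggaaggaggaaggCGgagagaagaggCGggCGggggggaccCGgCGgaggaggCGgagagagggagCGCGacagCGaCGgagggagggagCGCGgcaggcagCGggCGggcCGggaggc
Dnmt3a, internal start, chr12:3891494-3891793, plus strand: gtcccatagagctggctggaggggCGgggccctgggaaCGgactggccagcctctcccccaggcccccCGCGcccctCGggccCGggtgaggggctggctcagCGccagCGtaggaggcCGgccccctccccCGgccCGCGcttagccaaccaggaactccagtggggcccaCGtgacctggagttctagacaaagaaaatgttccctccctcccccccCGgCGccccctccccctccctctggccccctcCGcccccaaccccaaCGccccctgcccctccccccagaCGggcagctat
Hells, its only start, chr19:38930740-38931039, plus strand: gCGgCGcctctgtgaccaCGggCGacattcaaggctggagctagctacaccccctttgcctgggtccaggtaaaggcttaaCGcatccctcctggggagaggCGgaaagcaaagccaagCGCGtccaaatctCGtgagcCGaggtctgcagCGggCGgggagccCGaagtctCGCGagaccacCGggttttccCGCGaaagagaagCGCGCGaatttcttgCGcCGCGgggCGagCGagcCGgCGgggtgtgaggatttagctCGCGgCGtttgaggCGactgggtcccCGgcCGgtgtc
Dnmt3l, first start, chr10:78042037-78042336, plus strand: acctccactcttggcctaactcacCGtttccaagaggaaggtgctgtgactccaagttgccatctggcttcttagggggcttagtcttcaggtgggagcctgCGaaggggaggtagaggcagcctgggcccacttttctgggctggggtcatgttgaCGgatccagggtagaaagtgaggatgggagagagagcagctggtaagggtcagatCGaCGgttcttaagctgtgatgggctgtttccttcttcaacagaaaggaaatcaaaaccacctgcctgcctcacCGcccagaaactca

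These stretches differ widely in CpG content. The innermost Dnmt1 start held 33 CpGs in 300 bases and the outermost 2, while the median over 32851 RefSeq promoters of that length was 7. Those promoters were not limited to protein-coding genes, which all 6 genes are. The Dnmt3a upstream start held 46 CpGs, more than 98.4% of those promoters, and its internal start 18. Hells held 34, the inner Uhrf1 start 33 and Dnmt3b 30, and the 3 Dnmt3l starts held 6, 4 and 3.

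The same stretches were searched on both strands for the words TTTCCCGC, TTTGGCGC, TTTCGCGC and TTTGCCGC, forms of the site bound by E2F factors, which are known to drive genes of DNA replication. Of all 32851 promoters 2.26% held at least 1. Each of these words holds a CpG, and that share was not taken over promoters of like CpG content or of protein-coding genes only. Among the 13 starts, the innermost start of Dnmt1 held 2 matches (GCGCGAAA from -219 to -212 and TTTGGCGC from 33 to 40, counted from the start), the inner start of Uhrf1 held TTTCGCGC from -185 to -178, and Hells held TTTCCCGC from -62 to -55. No match lay in the starts of Dnmt3a, Dnmt3b or Dnmt3l in these windows. The 3 genes with an E2F match are those that act in maintenance, and a match is a description of the letters, not evidence of binding. The matching starts are rich in CpG, and the split by function was not tested. Words for other sites were searched too, and not all are reported here. The NRF1 word, held by 0.971% of promoters, lay at the innermost Dnmt1 start and the next one outward. The E box word, held by 7.15%, lay at a start of Dnmt3a and of Dnmt3l.

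Dnmt1, the maintenance methyltransferase, was the highest of the 6 genes in each library. Its level was 101, 86.1 and 67.0 TPM in vector replicates 1, 2 and 3 and 81.7, 100.3 and 90.7 TPM in SHMT2 replicates 1, 2 and 3. The groups overlapped, and vector replicate 3 was lowest. The means were 84.8 ± 17.2 and 90.9 ± 9.34 TPM (SD, n = 3 each), and the log2 fold change on the log2(TPM + 1) scale, SHMT2 over vector, was 0.11 (SE 0.17, limma adjusted p = 0.749). Averaged over the 6 libraries, Dnmt1 ranked 1855th of 23382 genes.

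Uhrf1, which brings Dnmt1 to hemimethylated DNA, came second in each library. It stood at 48.2, 53.6 and 17.98 TPM in the vector libraries and at 53.1, 60.02 and 55.1 TPM in the SHMT2 libraries. Vector replicate 3 lay far below the other 5 libraries, which spanned 48.2 to 60.02 TPM, and the groups overlapped through vector replicate 2. On the log2 scale the difference was 0.62 (SE 0.40, adjusted p = 0.453 by limma) with all libraries and 0.14 without vector replicate 3. That library also had the lowest sum of the 20 mitosis genes (748 TPM against 1095 to 2277 TPM in the others). The 36 DNA replication genes summed to 2161, 2214 and 1831 TPM in vector replicates 1, 2 and 3 and to 2301 to 2538 TPM with SHMT2, without overlap. Pola1 alone held 636 to 957 TPM of these sums. By the mean log2(TPM + 1) of the replication genes the groups overlapped, with vector replicate 3 again lowest. The part of the replication and mitosis genes in the low Uhrf1 value was not tested.

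Hells, the remodeller, was the only one of the 5 tested members whose groups did not overlap. It stood at 12.5, 6.53 and 7.70 TPM with vector and at 15.1, 14.4 and 14.6 TPM with SHMT2. Among all 11117 genes tested, 16.9% were likewise higher in SHMT2 without overlap. The means were 8.91 ± 3.16 and 14.7 ± 0.34 TPM (SD, n = 3 each), with a log2 fold change of 0.71 (SE 0.22), an unadjusted limma p of 0.0177 and an adjusted p of 0.219. The two-sided exact permutation p was 0.1, the smallest that 3 against 3 can give.

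The lower vector values of Hells were those of replicates 2 and 3, the libraries with the high erythroid and myeloid sums. The same libraries had low sums of germinal centre genes among the vector group (1482 and 3165 TPM, against 5584 TPM in vector replicate 1 and 3711 to 5458 TPM with SHMT2). They also had the lowest sums of B-cell genes (8544 and 7918 TPM against 10554 to 10837 TPM in the other 4 libraries). Their sums of B cell progenitor genes were the highest (338 and 303 TPM against 46.8 to 100.1 TPM), as were those of dendritic cell genes (159 and 161 TPM against 68.7 to 109 TPM). Between vector replicate 1 alone and the SHMT2 libraries the log2 difference was 0.22 (limma adjusted p = 0.327, from the spread of the SHMT2 libraries alone, since the lone vector library is assumed to vary like them). With the erythroid and myeloid level as a covariate it was 0.35 (limma adjusted p = 0.285). Without vector replicate 1, and so with replicates 2 and 3 as the only controls, limma called Hells at a log2 fold change of 0.95 (adjusted p = 0.0238), in a fit that called 7.60% of all genes. The part of B-cell, progenitor, dendritic and germinal centre transcripts in the Hells difference was not tested.

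**Figure D1:**
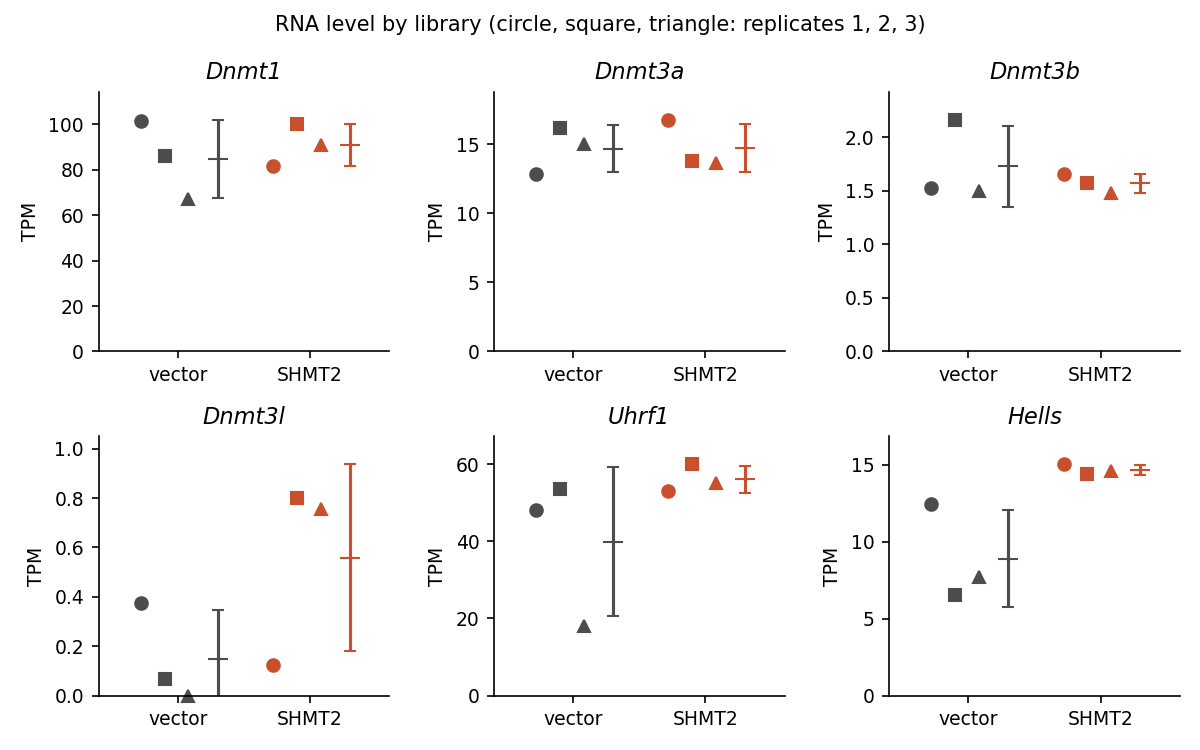
RNA level in TPM (y axis, from 0) of the 6 genes in each of 3 vector (grey) and 3 SHMT2 (orange) libraries, with the mean and SD of each group to the right of its points (the lower SD bar of Dnmt3l in vector ends at the axis). The Hells points of the SHMT2 group lie between 14.4 and 15.1 TPM, above all vector points, and the Uhrf1 point of vector replicate 3 lies alone at 17.98 TPM.

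**Figure D2:**
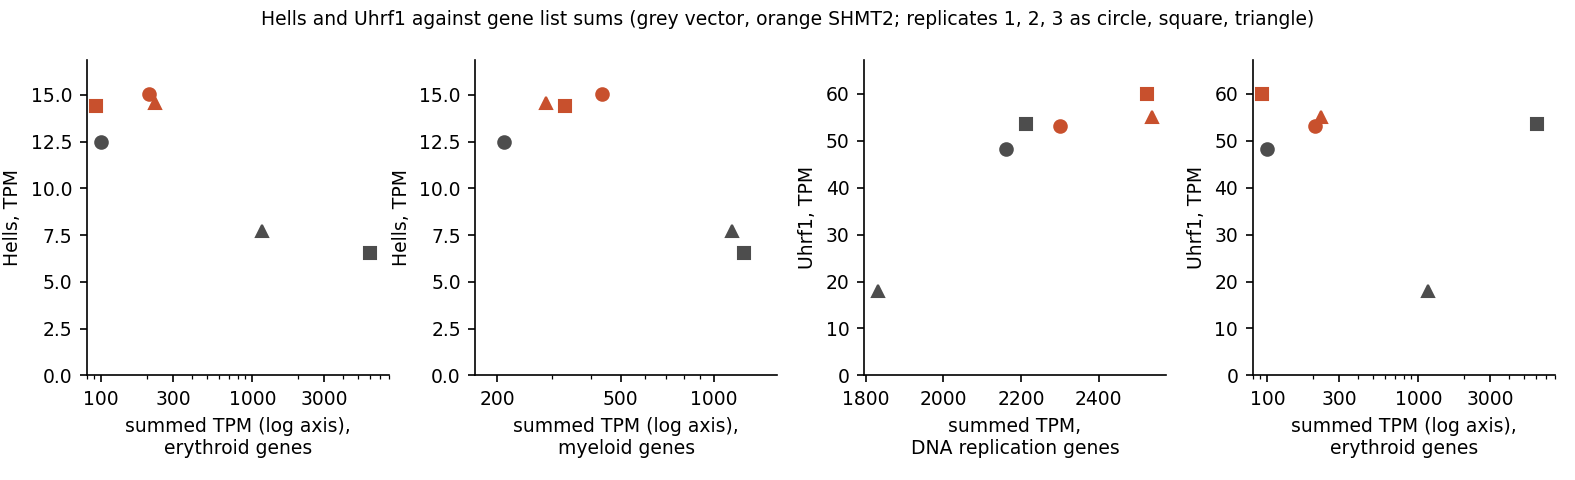
TPM of Hells or Uhrf1 (y axis) against the summed TPM of erythroid, myeloid or DNA replication genes (x axis, logarithmic for erythroid and myeloid genes) in 3 vector (grey) and 3 SHMT2 (orange) libraries. The 2 lowest Hells points, 6.53 and 7.70 TPM, are the vector libraries with the highest erythroid and myeloid sums, and the lowest Uhrf1 point is the library with the lowest DNA replication sum.

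The de novo enzymes differed in level. Dnmt3a stood at 12.8, 16.2 and 15.1 TPM with vector and at 16.8, 13.8 and 13.7 TPM with SHMT2, a log2 fold change of 0.00 (SE 0.13, limma adjusted p = 0.989). Dnmt3b, its close relative, stood at 1.52, 2.16 and 1.499 TPM with vector and at 1.66, 1.57 and 1.48 TPM with SHMT2 (log2 fold change -0.08, SE 0.16, limma adjusted p = 0.823). The groups of either gene overlapped. Dnmt3a was 7.50 to 10.1 times the level of Dnmt3b within a library, and Dnmt1 was 4.45 to 7.89 times the level of Dnmt3a. Dnmt3a and Hells lay next to each other in the order of levels, and which of them was higher changed between libraries.

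Dnmt3l, which stimulates the de novo enzymes without methylating DNA itself, lay below the filter of a mean of 1 TPM and was not among the genes tested. It stood at 0.37, 0.07 and 0 TPM with vector and at 0.12, 0.80 and 0.75 TPM with SHMT2, groups that overlap (two-sided exact permutation p = 0.2). With no filter its log2 fold change was 0.42 (limma adjusted p = 0.477). Across all genes tested limma called 0% (0 of 11117, 1858 at an unadjusted p under 0.05), and 0 of the 5 tested members.

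Ratios between members were then read within each library, which removes any scaling of a whole library but not differences in its mix of cells. Dnmt1 was 8.11, 13.2 and 8.70 times the level of Hells with vector and 5.42, 6.97 and 6.22 times with SHMT2, without overlap. The two-sided exact permutation p of the log2 ratio was 0.1. Hells did not overlap on its own, so this ratio is no separate support, and the share of such ratios over all gene pairs was not computed. The ratio of Dnmt1 to Uhrf1 was 1.54 to 2.10 in 5 libraries and 3.73 in vector replicate 3. In all 5 such ratios were computed, and Dnmt1 to Hells was the only one whose groups did not overlap.

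Genes with a profile most like each member over the 6 libraries were read off as the 3 highest Pearson correlations of log2(TPM + 1) among 8752 genes of at least 5 TPM. For Uhrf1 these were Tubb5, Melk and Psmd2 (r of 0.997, 0.994 and 0.994), and for Hells they were Csrp2, Dbi and Qrsl1 (0.996, 0.996 and 0.995). For Dnmt1 they were Raver1, Sfxn1 and Mms22l (0.987, 0.986 and 0.979), for Dnmt3a Tcf7, Bivm and Atf4 (0.987, 0.977 and 0.974), and for Dnmt3b Rreb1, Lpcat1 and Stk16 (0.995, 0.992 and 0.992). These are the highest of 8752 values over only 6 libraries, and they describe these libraries alone.

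Partners of the members were read from lists, and limma called 0 genes of the lists in either direction. Of 13 maintenance partners 12 were tested, and 11 of them were higher in the SHMT2 mean. Over all 11117 genes tested 5918 were higher. Of the 12, 5 were higher without overlap (a share to be read against 16.9% of all genes). The median log2 fold change of the 12 was 0.16, against 0.02 over all genes tested. Cdca7, which forms a remodelling complex with Hells, stood at 38.5, 26.5 and 16.7 TPM with vector and at 38.9, 43.8 and 45.0 TPM with SHMT2 (limma adjusted p = 0.296). The PCNA-associated factor 2810417H13Rik, also called Pclaf, which takes part in loading Dnmt1, was at 15.6 ± 8.92 TPM with vector and 30.4 ± 2.32 TPM with SHMT2 (SD, n = 3 each, limma adjusted p = 0.271). Rbbp7 and Rbbp4, histone-binding subunits of several repressive complexes, had log2 fold changes of 0.40 and 0.17. For Cdca7 and 2810417H13Rik the lowest value was that of vector replicate 3, as for Uhrf1.

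Other lists were mixed. Of 23 tested genes of repressive chromatin 13 were higher and 10 lower, 7 and 3 of them without overlap, beside 16.9% higher and 8.26% lower without overlap among all genes tested. The heterochromatin protein Cbx5 was lower with SHMT2 (104 ± 10.2 against 148 ± 13.9 TPM, log2 fold change -0.50, limma adjusted p = 0.204), while the corepressor Trim28, the deacetylase Hdac2 and the methyltransferase Suv39h2 had log2 fold changes of 0.26, 0.27 and 0.43. Of 8 readers of methylated CpG 7 were higher, beside 5918 of all 11117 genes tested, and the median log2 fold change of the readers was 0.09. The reader family member Mbd3 was at 117 ± 4.35 against 87.4 ± 6.48 TPM (SD, n = 3 each), without overlap, at a limma adjusted p of 0.204. Zbtb4 and Mbd2, further readers, had log2 fold changes of 0.16 and 0.11.

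Of 4 listed genes of active demethylation 2 passed the filter, the oxidases Tet3 and Tet2, and both had lower means with SHMT2. Tet3 stood at 66.5 ± 2.96 against 97.3 ± 11.6 TPM, without overlap, beside 8.26% of all genes tested that were lower without overlap. Tet2 had a log2 fold change of -0.38, and its groups overlapped (limma adjusted p of 0.204 for Tet3 and 0.359 for Tet2). Of 9 genes of the methyl donor cycle 4 were higher and 5 lower, with Mat2b at 0.23, Ahcyl1 at -0.13 and Ahcy at 0.17 (log2 fold changes). Of 36 DNA replication genes 26 were higher, with Rfc4, Pold1, Cdt1 and Pola1 at log2 fold changes of 0.49, 0.52, -0.42 and 0.33, and the median was 0.20. Of 20 mitosis genes 13 were higher, led by Cep55 at 1.29, with Bub1, Top2a and Bub1b at 0.56, 0.54 and 0.15. These counts are to be read beside 5918 higher of all 11117 genes tested.

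Methylation was read at the members in ERRBS, as the percent of calls that remained C after bisulfite treatment. Within 2 kb of the 6 genes 743 cytosines had at least 10 calls in all 6 libraries, 365 of them at Dnmt3a, 129 at Dnmt3b, 111 at Dnmt1, 71 at Uhrf1, 60 at Hells and 7 at Dnmt3l. Of these, 589 had a mean level under 10%, 136 a level over 75% and 18 one in between. Most cytosines of these genes were thus either nearly free of methylation or highly methylated.

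In every start window with at least 3 covered cytosines the level was below 2.5% in each library. Within 1 kb of the first Dnmt3a start (chr12, position 3806980) 279 cytosines averaged 0.213% ± 0.036 with vector and 0.229% ± 0.024 with SHMT2 (SD, n = 3 each). The Dnmt3b start held 109 cytosines at 0.275% ± 0.055 and 0.313% ± 0.140, Hells 60 at 0.113% ± 0.094 and 0.0782% ± 0.010, and Uhrf1 48 at 0.858% ± 0.254 and 0.564% ± 0.244. The innermost Dnmt1 start (position 20952623) held 51 cytosines at 0.161% ± 0.127 and 0.170% ± 0.040. These values pool 2229 to 19769 calls per library and window, and intervals from such calls would cover counting error only.

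Of gene-end windows, those within 1 kb of either end of the RefSeq span, only the starts of Dnmt3b, Hells and Uhrf1 held the 3 cytosines required. By a binomial regression 0 of these 3 was called at an adjusted p under 0.05 and 10 points. At levels this low a fall of 10 points cannot occur, so only a rise could have been called at the member starts. Of all 16191 gene-end windows tested 0% were called (548 at an unadjusted p under 0.05), and of 12806 start windows 0% (437 at an unadjusted p under 0.05), among them the starts of Dnmt1 and Dnmt3a. Differences at the members ran from -0.29 points at Uhrf1 to 0.69 points at the internal start of Dnmt3a, where the 3 vector libraries stood at 0.328%, 0.605% and 1.18% and the SHMT2 libraries at 0.759%, 2.12% and 1.31% over 13 cytosines (adjusted p = 0.876 by the binomial regression). Leaving out 1 library moved the latter to between 0.33 points (without SHMT2 replicate 2) and 1.01 points (without SHMT2 replicate 1), and the Uhrf1 value to between -0.44 (without vector replicate 1) and -0.19 points (without SHMT2 replicate 2).

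Dnmt1 differed between its innermost and its outermost start. At the innermost start all 51 cytosines, from 207 bases before to 417 bases after it, were under 2.5%. The outermost start, in whose window of 1 kb fewer than 3 cytosines were covered, was followed 992 to 1109 bases downstream by 5 cytosines at 94.2% ± 2.89 with vector and 93.3% ± 1.96 with SHMT2 (SD, n = 3 each). Mouse Dnmt1 is known to have an upstream first exon used in oocytes. Genome-wide, 72.9% of 12815 start windows with at least 3 cytosines were under 5%.

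H3K4me3, a histone mark of active or poised starts, lay at the same places. A peak overlapped the 1 kb around a start of Dnmt1, Dnmt3a, Dnmt3b, Uhrf1 and Hells in all 5 libraries, so at 5 of the 6 genes, while 56.3% of 16457 genes with an annotated start had one. At Dnmt1 the peak covered the innermost start in 5 of 5 libraries, and no library had a peak within 1 kb of the outermost one. By the authors' fold enrichment, used here only to rank peaks within a list, the highest peak at the Dnmt1 start stood within the top 2.19% to 16.2% of its list and that at Uhrf1 within the top 3.08% to 8.52%. At Dnmt3l the only H3K4me3 peaks near the first start began 954 bases or more inside the gene and stood at 48.8% to 70.2% from the top by their highest peak.

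**Figure D3:**
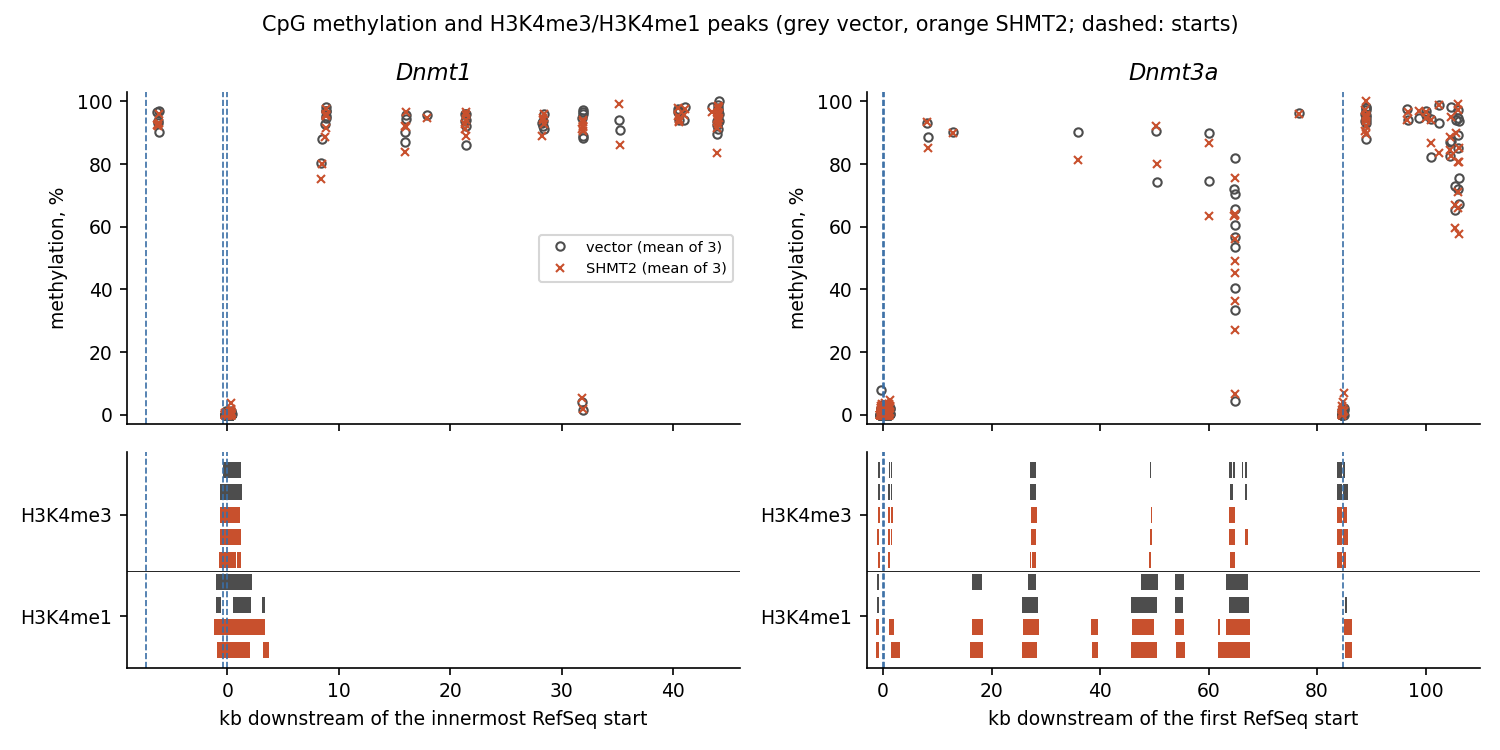
Upper panels: methylation in percent (y axis) of each covered cytosine along Dnmt1 and Dnmt3a, as the mean of 3 vector (grey circles) and 3 SHMT2 (orange crosses) libraries, against the distance in kb from a start (x axis, dashed lines mark RefSeq starts). Lower panels: peaks of H3K4me3 (5 libraries) and H3K4me1 (4 libraries) at the same distances; the innermost Dnmt1 start lies near 0% under H3K4me3 and the cytosines beside the outermost one lie above 90%.

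Dnmt3a showed unmethylated DNA without a called H3K4me3 peak on it. Only called peaks were read, so such a gap does not show that the mark was absent. Its upstream island held 299 cytosines over 1754 bases, each with a mean level under 5%, and its 2 start windows held 279 and 295 covered cytosines, the 2 highest counts of all 12815 start windows. In all 5 H3K4me3 libraries the start bases lay in a gap of 1582 to 1689 bases between peaks, and the highest flanking peak stood at 49.7% to 64.8% from the top of its list. Of the 299 cytosines 275 lay under no H3K4me3 peak of any library. Genome-wide, 26.4% of 9343 start windows under 5% had no H3K4me3 peak on the start base in any library and 56.9% had one in all 5.

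The internal start of Dnmt3a, where Dnmt3a is known to start its short isoform Dnmt3a2, had higher-ranked peaks. The peak just before it stood within the top 7.20% to 13.2% of each list, and the gap over the start base was 113 to 198 bases. At Dnmt3b a gap of 315 to 344 bases parted 2 peaks, the higher of which stood within the top 8.04% to 29.4%. At Hells the start base itself was covered in 5 of 5 libraries. Dnmt3b thus had H3K4me3 peaks and nearly unmethylated DNA at its start with an RNA level of 1.48 to 2.16 TPM, and Hells had both with 6.53 to 15.1 TPM.

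**Figure D4:**
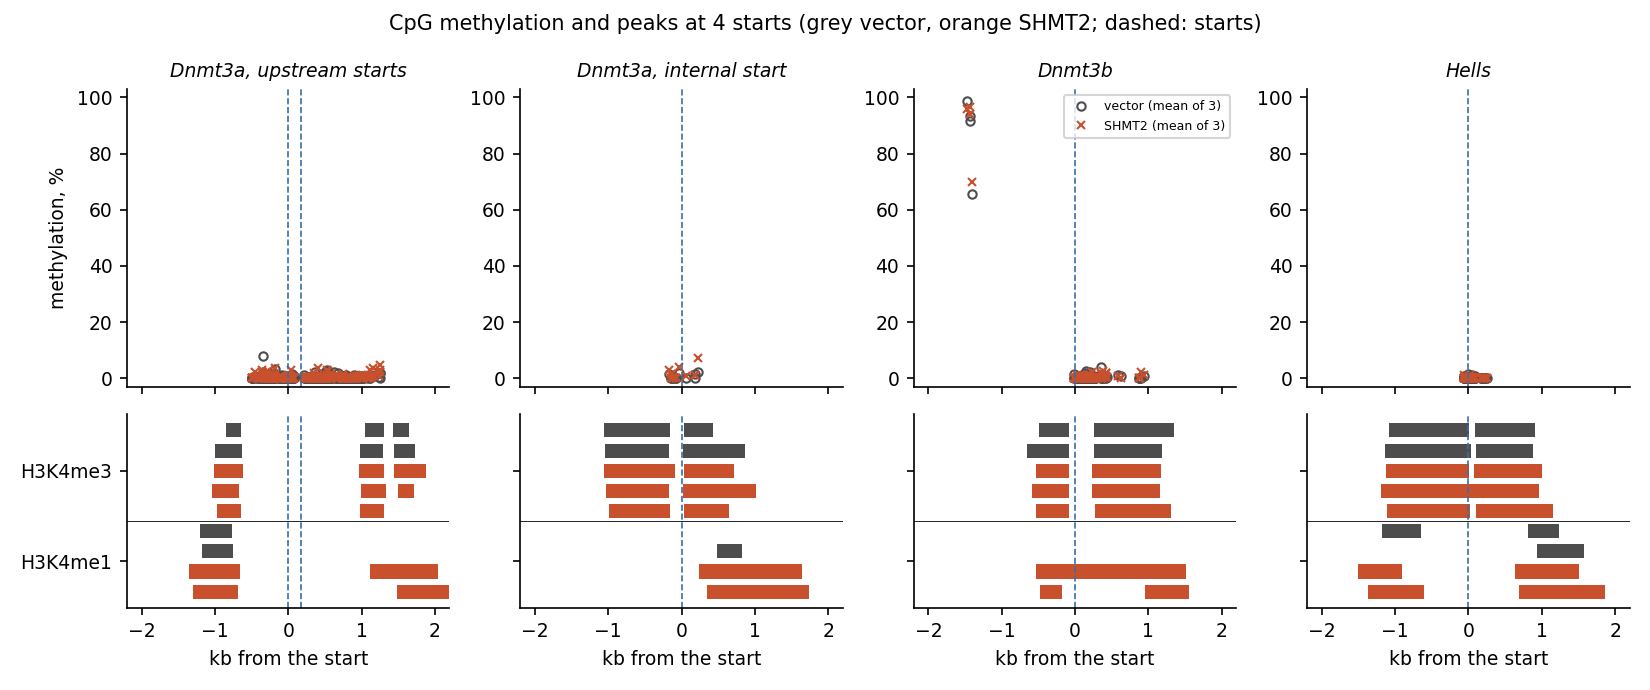
Methylation in percent (upper panels, mean of 3 vector libraries in grey circles and of 3 SHMT2 libraries in orange crosses) and peaks of H3K4me3 and H3K4me1 by library (lower panels) within 2.2 kb of 4 starts, against the distance in kb from the start. Around the upstream starts of Dnmt3a no H3K4me3 peak reaches the 1582 to 1689 bases over the starts, while the gap is 113 to 198 bases at the internal start.

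Over all 6 genes, cytosines under a called H3K4me3 peak in all 5 libraries were low, while cytosines outside such peaks were not all high. Of 62 cytosines under such a peak in only some libraries, 54 were below 10% and 8, all at Dnmt3a, at 10% to 75%. The 181 cytosines under H3K4me3 in all 5 libraries were all below 10%, at 0.299% ± 0.070 with vector and 0.345% ± 0.135 with SHMT2. The 422 cytosines under no peak of either mark held 133 above 75% and 282 below 10%, of which 278 were at Dnmt3a. Away from its innermost start Dnmt1 held 10 further covered stretches, taken as runs with no gap over 1 kb, and 9 of them stood at 85.7% to 98.2% in each library.

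H3K4me1, a mark of enhancers and of the flanks of starts, had a peak at a start of Dnmt1, Dnmt3a, Uhrf1 and Hells in all 4 libraries, against 45.4% of all genes. Dnmt3b had one in both SHMT2 lists and in neither vector list. Of all 16457 genes 5.28% showed that pattern, and the SHMT2 lists held 48993 and 52056 peaks against 37274 and 33119 in the vector lists. The peaks at Dnmt3b stood at 31.4% to 65.2% from the top of their lists. Whether the longer lists account for this pattern was not tested.

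The long body of Dnmt3a carried more H3K4me1 peaks than any other of the 6 genes, 6 in either vector list and 10 and 9 in the SHMT2 lists. The vector lists covered 12712 and 13335 bases of the gene with 2 kb on either side, and the SHMT2 lists 19910 and 22308. This was not particular to Dnmt3a, since both SHMT2 lists covered more bases than either vector list at every one of the 6 genes. At Uhrf1, for example, they covered 5008 and 3358 bases against 1175 and 1163. The SHMT2 lists were also longer over the whole genome, and the part of list length was not tested. At Hells a H3K4me3 peak inside the gene, between positions 38944446 and 38945025 of chromosome 19, was present in 3 of 3 SHMT2 lists and 0 of 2 vector lists. It stood at 76.2% to 79.1% from the top, and 2.66% of the peaks of SHMT2 replicate 4 showed the same pattern.

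The 18 cytosines of intermediate mean level, 10% to 75%, were not spread evenly. Of them 13 lay in Dnmt3a, 2 each in Dnmt3b and Uhrf1 and 1 in Dnmt3l, and 8 of those in Dnmt3a lay in 1 cluster of 10 cytosines (chr12, 3871756 to 3871919), at -19988 to -19825 bases from the internal start. All 8 lay under H3K4me1 in 4 of 4 libraries and under H3K4me3 in 1 to 4 of 5. That cluster stood at 60.03%, 61.2% and 54.6% in the vector libraries and at 60.5%, 35.9% and 63.2% in SHMT2 replicates 1, 2 and 3, from 643 to 780 calls per library. SHMT2 replicate 2 lay far below the other 5 libraries. The difference between the group means was -5.41 points with it and 3.23 points without it.

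SHMT2 replicate 2 was the lowest of the 6 libraries at 18 of these 18 cytosines, with a mean of 38.8% against 55.7% to 61.6% in the others. Over all 209272 autosomal cytosines of the same range it was the lowest at 25.4%, over those of 50% to 75% at 48.5% and over those of 10% to 50% at 13.7%. Its mean over all 209272 was nevertheless the highest, at 42.9% against 36.3% to 38.9%, and in the 10% to 50% range it was 36.6% against 21.1% to 25.9%. From 50% to 75% its mean was the lowest, at 55.4% against 64.0% to 67.5%. Of the 18, 13 belong to the upper and 5 to the lower range. The 18 share fragments and reads, so they are not 18 independent points, and their range was set on the mean of the same libraries. Of 101 member cytosines between 5% and 95% 0 were called (0 at an adjusted p under 0.05 and 25 points, and 0 at an unadjusted p under 0.05), as were 0% of 485099 in all (24130 at an unadjusted p under 0.05), by the binomial regression. Their median difference was -1.55 points, against 0.71 points over all 485099.

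**Figure D5:**
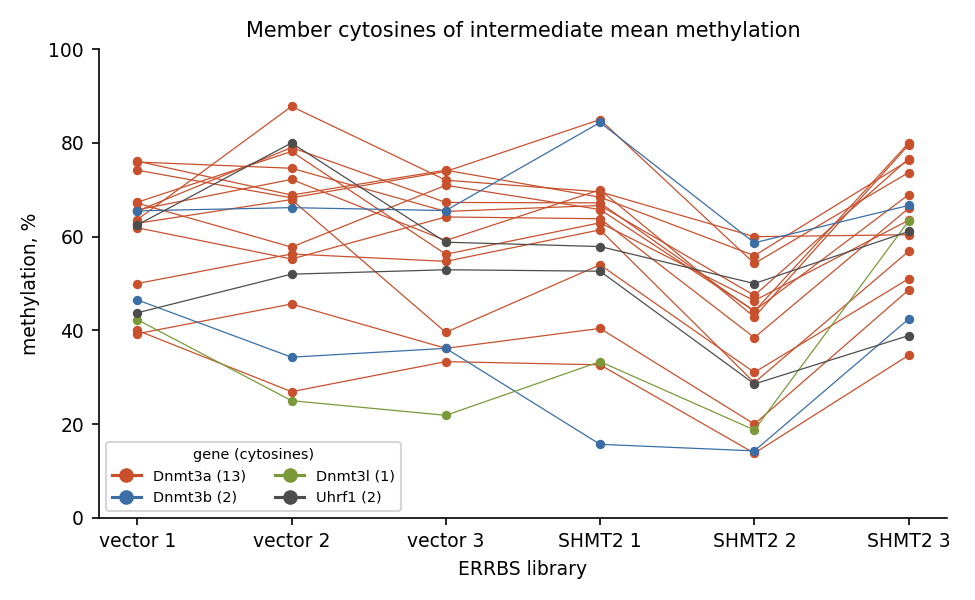
Methylation in percent (y axis) of the 18 cytosines of intermediate level at Dnmt3a, Dnmt3b, Dnmt3l and Uhrf1 in each of the 6 ERRBS libraries (x axis), with a line joining the values of 1 cytosine. SHMT2 replicate 2 is the lowest point of all 18 lines.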

How the data were processed

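RNA-seq, ERRBS and ChIP-seq libraries were grouped by their titles. The authors deposited RNA levels as TPM; the submitters' processing notes name STAR, BWA, Bismark, Bowtie2, MACS2 and the build mm10 without versions, and no source used here names the tool behind the TPM. The ERRBS files, per the file headers, list each cytosine with its coverage (the count of calls) and the percent of C calls, strands apart, from 10 calls up; the labels' protocol for these libraries describes bisulfite PCR and direct sequencing. The authors' peak lists, 1 per library, hold a fold enrichment, -log10 p and q values and a score, as deposited; no source used here says whether an input served as control.

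TPM were tested as log2(TPM + 1) with limma 3.58.1 in R 4.3.3 (trended empirical Bayes, genes of a mean of at least 1 TPM, Benjamini-Hochberg adjustment, threshold 0.05). ERRBS calls were pooled in windows of 1 kb on either side of gene ends or RefSeq starts, with at least 3 cytosines of at least 10 calls in all 6 libraries, and tested by binomial regression with overdispersion shrunk across windows by limma. Both tests were checked on simulated data with independent noise, changes larger than those of the members and windows drawn at mean levels of 5% to 95%. The check therefore does not cover shared differences in cell mix or windows as low as the member starts. Single values were compared by two-sided exact permutation tests. Peaks counted at a start if they overlapped its 1 kb on either side by at least 1 base. The figures were drawn with matplotlib 3.10.9.

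The members and the gene lists were chosen with earlier results of these data known. From each list the 4 genes of smallest limma p were named, except 2 that are not reported here, and for each tested member the 3 genes of most similar profile. Fits with the replicate number as a block were made; same-numbered libraries did not deviate together (correlations of -0.42 to -0.06 in RNA and -0.38 to -0.06 in ERRBS).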

Additional observations from a re-analysis of the deposited data

How the results depend on the processing

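Hells and Uhrf1 had a positive log2 fold change under every alternative run, at 0.22 to 0.95 for Hells and 0.14 to 0.90 for Uhrf1. Limma called 0 members under each alternative but 1: without vector replicate 1 it called 1 member, Hells, and 8 genes of the lists (7 higher and 1 lower), so leaving out 1 library gave 0 to 1 members and 0 to 8 list genes. The cause was not tested. The small differences of the other members turned sign. Dnmt3a was at -0.0293 with median-ratio scaling and Dnmt3b at 0.0420 with quantile normalisation. With the erythroid and myeloid covariate Dnmt1 was at -0.0460 and Dnmt3b at 0.0371, and without vector replicates 2 and 3 together they were at -0.16 and 0.0261. Leaving out 1 library gave -0.0441 to 0.25 for Dnmt1, -0.0860 to 0.0733 for Dnmt3a and -0.14 to 0.0328 for Dnmt3b.

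In ERRBS no alternative called a member window or cytosine. With windows limited to mean levels of 5% to 95%, no member window was left to test, so that setting says nothing about them. Leaving out 1 library gave differences in points of -0.037 to 0.102 at the Dnmt3b start, -0.0768 to 0.0161 at Hells, -0.0469 to 0.0782 at the innermost Dnmt1 start and -0.00277 to 0.0330 at the first Dnmt3a start. The Dnmt1 value was -0.00931 with at least 20 calls and the Dnmt3a value -0.00237 with windows of 500 bases. The Uhrf1 value was -0.69 with windows of 500 bases and -0.0938 with at least 20 calls. Windows at RefSeq starts were chosen after seeing the data, since gene ends missed the starts of Dnmt1 and Dnmt3a. Members with a H3K4me1 peak in every library numbered 4, or 2 with windows of 500 bases and 0 with a -log10 q of at least 10.

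With the replicate number as a block (replicate block), limma called 0 members and 0 list genes, the Hells adjusted p was 0.464, and 1180 genes had an unadjusted p under 0.05, against 1858 without it. In ERRBS 506 gene-end windows did, against 548. The block changed no call. TPM without depth, 3 libraries a group and CpG-rich coverage limit what could be seen, and Dnmt3l had only 7 covered cytosines.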

Other observations

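Some cytosines of Dnmt1 and Dnmt3b differed between the strands of 1 CpG. Of 20 CpGs of the 6 genes with both strands covered and 1 strand over 75%, 4 differed by more than 50 points between strands, against 9.67% of 36414 such autosomal CpGs. In Dnmt1 (chromosome 9) position 20920706 stood at 94.7% and its partner 20920707 at 1.74%, and position 20920756 at 4.77% and its partner 20920757 at 92.9%. In Dnmt3b (chromosome 2) position 153686573 stood at 91.9% and its partner 153686574 at 31.6%, and position 153686622 at 0.362% and its partner 153686623 at 98.8%. These are means of the 6 libraries, and the low strand was the same in all 6. Position 153686574 is 1 of the 18 cytosines of intermediate level. The cause was not tested.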
